A study of Lens culinaris with 20 samples.

Results

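The miR319 family and miR4414 were studied as a set because a sequence of each, gma-miR319f_1ss17TC and gma-miR4414a-3p_L+1_1ss10TA, stands on the same listed precursor in small RNA data from lentil (Lens culinaris), a grain legume. Members were the table entries named after a known miRNA that carries the number of either family and no other, with 1 kept per mature sequence. The rule found 19 entries among 1642, which made 16 members among 1464 distinct sequences. Of the members, 15 belonged to miR319 and 1 to miR4414. The start of a name gives the species of the known miRNA it was matched to (gma for soybean, mtr for Medicago truncatula, ath for Arabidopsis thaliana, aly for Arabidopsis lyrata, rco for castor bean), and the rest is printed as the table gives it.

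Libraries came from roots, shoots, stem, mature leaves, flower buds, flowers and young pods. Each tissue had 3 libraries except flowers, which had 2, for 20 in all, and total RNA was taken from pooled samples. The labels name neither genotype, age nor treatment, and nothing in them tells if replicate libraries come from different plants or pools, so a p-value here measures only the spread between libraries, which may be technical. The table holds miRNAs alone, so the tissue labels could not be set against marker genes.

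miR319 directs the cutting of mRNAs for TCP transcription factors, which in Arabidopsis restrain growth at the margins of leaves and petals, and plants with too much miR319 have crinkled leaves. Its sister family, miR159, shares much of the sequence but mainly targets MYB factors. Precursors of miR319 in Arabidopsis are long hairpins that are cut from the loop towards the base, and miR4414 is a miRNA described in legumes. Targets were not measured here.

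The 5 most abundant members and the partner strand of miR319c are shown first because the differences between tissues and between members turn on them. The seed, bases 2 to 8 from the 5′ end, is in capitals, and all sequences are those of the deposited table, written with T.
gma-miR319f_1ss17TC: tTGGACTGaaggggcccctt
mtr-miR319a-3p_R+1: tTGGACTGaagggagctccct
gma-miR319d: tGGACTGAaggggagctccttc
ath-miR319c_L+1R-1: tTTGGACTgaagggagctcct
mtr-miR319c-5p_L-1R+1: gAGTTCCTtgcagcccaaagc
gma-miR4414a-3p_L+1_1ss10TA: aTCCAACGaagcgggagctgc
The seed TGGACTG was shared by 5 members, among them miR319f and miR319a, which held 494594 of the reads. gma-miR319d starts 1 base further in on the common miR319 sequence, so that its seed is GGACTGA. ath-miR319c_L+1R-1 and 2 other members start 1 base earlier and have the seed TTGGACT. The remaining members, miR4414 and those named 5p or p5, each had a seed of their own. Of the 16 members 10 were 21 nt long, 2 were 20 nt, 3 were 22 nt and 1 was 23 nt, and 7 began with T.

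The sister family shows how close the sequences come. The most abundant miR159 feature is printed beside miR319a for that reason.
mtr-miR159a: tTTGGATTgaagggagctcta
mtr-miR319a-3p_R+1: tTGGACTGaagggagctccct
Aligned without gaps, miR319a and mtr-miR159a shared 17 of 20 bases. miR319f shared 15 of 20 bases with miR319a and 15 of 20 with mtr-miR159a.

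The precursor that carries both miR4414 and miR319f is shown with the mature sequences in capitals, miR4414 first.
gma-MIR319f precursor: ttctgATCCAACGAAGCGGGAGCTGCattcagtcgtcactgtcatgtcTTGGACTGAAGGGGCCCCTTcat
It is 71 nt long. miR4414 lies at positions 6 to 26 and miR319f at positions 49 to 68, with 22 bases between them, and both match without a mismatch. The table lists miR4414 as the 5′ arm of this precursor although its name ends in 3p. A minimum free energy fold (-21.4 kcal/mol, or -30.1 per 100 nt) placed 9 pairs between these sequences, against 17 or 18 pairs between the arms of the precursors of miR319a-5p, miR319b-5p and miR319c. The same fold gave those 3 precursors -40.4 to -41.7 kcal/mol per 100 nt. Whether miR4414 and miR319f are opposite arms of 1 hairpin was not tested, and a longer stretch of the genome was not analysed here.

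The same question applied to another member. mtr-MIR319b-p5_1ss13GA is listed as the 5′ arm of a 70 nt precursor whose listed 3′ arm is ath-miR319a_1ss21TA. There were 21 bases and 4 pairs between them. ath-miR319a_1ss21TA had 1 mismatch to this precursor, which carries the miR319a sequence at that place. In the 174 nt mtr-MIR319b precursor the best match of mtr-MIR319b-p5_1ss13GA was 21 of 23 bases. It lay at positions 106 to 128, on the 3′ side, again 21 bases before the miR319a sequence. mtr-MIR319d-p5 lay at positions 58 to 78 of a 202 nt precursor and had 0 pairs with miR319a. There its bases paired with positions 121 to 141, between it and miR319a. The best match of miR4414 to that precursor was 12 of 21 bases at positions 123 to 143, 24 bases before miR319a, and its best matches to the other listed miR319 precursors over 100 nt were 10 or 11 of 21 bases. The map of listed precursors shows these positions.

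**Figure D1:**
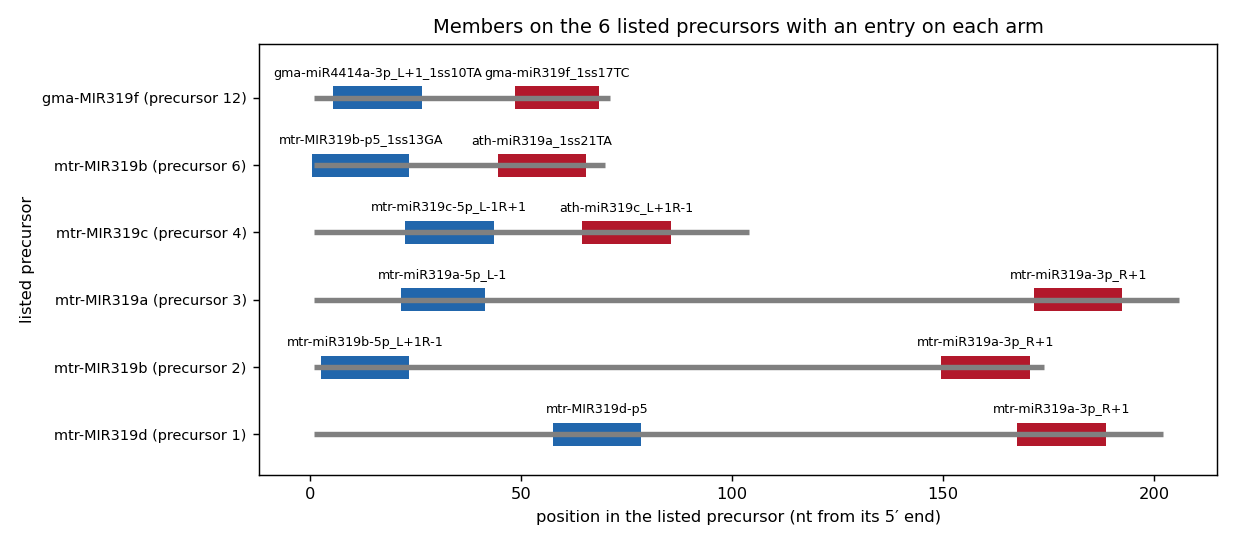
Each grey line is 1 of the 6 listed precursors that hold an entry on both sides, drawn to scale in nucleotides from its 5′ end, with the first entry in blue and the second in red. miR4414 and miR319f lie 22 bases apart on the 71 nt precursor, while the partner strands of miR319a lie at the far ends of precursors of 174 and 206 nt.

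The members lay on 12 listed precursors, of which 6 had an entry on each side, and 1 member, rco-miR319a_R+1_1ss21TC, had no listed precursor. The miR319a sequence stood on 3 precursors with the same values in each entry, so its reads cannot be assigned to 1 locus. These entries held 100913 reads each, of which 80% of the values were not whole numbers. In 1 entry 4 of 20 values were whole, and after summing the 3 entries 14 of 20 were, to a tolerance of 0.01. ath-miR319a_1ss21TA, with 2 entries, went from 7 to 19 whole values of 19. The rule by which the authors counted repeated entries is not given in the labels. If reads were divided among entries, the level of miR319a in 1 entry understates its total by up to 3 times.

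Library totals ran from 72853 to 997119 reads. Levels are CPM (reads scaled to a common library total, with TMM factors of 0.508 to 1.71). A read covers a whole mature miRNA, so levels were not divided by length. The table lists almost no value under 5 reads (13 of 3892 values above 0 in 1146 entries that were whole and listed once), so a 0 stands for fewer than about 5 reads. That limit ran from 4.03 CPM in flowers 2, the deepest library, to 61.0 CPM in mature leaves 3, and was 40.5 CPM in roots 2, the shallowest.

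miR319f was the most abundant member and was highest in stem. It was at 96514, 251619 and 129772 CPM in the 3 stem libraries and at 3115, 2519.5 and 3962 CPM in roots. In mature leaves it was at 5044, 3616 and 3987 CPM. Roots and mature leaves overlapped, and every stem library lay above all libraries of the other 6 tissues. Between these ends it was at 39647, 28639 and 35858 CPM in shoots, at 29184, 65947 and 57591 CPM in flower buds and at 51087 and 49580.2 CPM in flowers. In young pods it was at 4241, 13904 and 21298 CPM, a spread that reached from the level of mature leaves to just below that of shoots. The mean in stem, 159302 ± 81660 CPM (SD, n = 3), was 49.8 times the 3199 ± 725 CPM (SD, n = 3) of roots. In whole tissue, a change in the share of cells that make a miRNA and a change in its amount per cell cannot be told apart.

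Each tissue was set against the average log2 level of the other 6 with edgeR's quasi-likelihood F-test, over 323 features that passed a filter on low counts. Higher and lower were called where the p-value, adjusted after Benjamini-Hochberg, was under 0.05 and the difference was at least 1. miR319f was higher in stem by 3.33 ± 0.29 (SE, adjusted p = 5.84e-08), in flower buds by 1.41 ± 0.32 (adjusted p = 0.00256) and in flowers by 1.39 ± 0.37 (adjusted p = 0.0160). It fell by 3.25 ± 0.45 in roots (adjusted p = 1.82e-05), or by 2.64 with scaling by library size alone and by 4.03 with the authors' factors, and fell by 2.78 ± 0.44 in mature leaves (adjusted p = 5.75e-05). In shoots the difference was 0.77 ± 0.33 (adjusted p = 0.152) and in young pods -0.87 ± 0.38 (adjusted p = 0.117), and neither passed. Without mature leaves 1 the difference in mature leaves was -3.38, and without roots 2 it was -3.40.

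In the order of its levels, miR319f in stem exceeded flower buds by 1.65 ± 0.47 on the log2 scale (adjusted p = 0.0115). Flower buds, flowers and shoots did not differ beyond their spread from the next in order, at 0.02 ± 0.51 and 0.54 ± 0.51. Shoots exceeded young pods by 1.40 ± 0.47 (adjusted p = 0.0351) and young pods exceeded mature leaves by 1.64 ± 0.47 (adjusted p = 0.0166). Mature leaves and roots, at 0.40 ± 0.46, did not differ beyond their spread. Over all features tested, 30% passed between stem and flower buds, 23.8% between shoots and young pods and 28.8% between young pods and mature leaves. The step from stem to flower buds did not pass without stem 2, roots 2, flower buds 3, flowers 1 or young pods 3, where adjusted p reached 0.119. The step from shoots to young pods did not pass in 12 of 20 fits with 1 library left out, which left out any library of roots or shoots, stem 2, mature leaves 1, flower buds 3, flowers 1, young pods 1 or young pods 2, with adjusted p up to 0.173. Without mature leaves 2 the step from young pods to mature leaves had an adjusted p of 0.0607.

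miR4414 followed the same tissues at a lower level. It was at 6366, 16161 and 12778 CPM in stem and at 152, 179 and 158.5 CPM in mature leaves. Young pods were at 269.7, 321 and 153 CPM, of which the last lay within the range of mature leaves, and roots were at 253, 324 and 253 CPM. Every stem library lay above all others, and the roots, young pods and mature leaves overlapped in part. Shoots were at 1512, 1363 and 1513 CPM, flower buds at 1649, 1617 and 1784 CPM and flowers at 2678 and 2153 CPM. The stem mean of 11768 ± 4975 CPM (SD, n = 3) was 72.1 times the 163 ± 14.3 CPM (SD, n = 3) of mature leaves.

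Against the other 6 tissues miR4414 was higher in stem by 4.21 ± 0.23 (SE, adjusted p = 3.99e-11 by edgeR's quasi-likelihood F-test) and in flowers by 1.54 ± 0.29 (adjusted p = 0.00239), or 2.20 without flowers 2. It fell by 2.99 ± 0.36 in mature leaves (adjusted p = 2.03e-06), or by 3.62 without young pods 3. It fell by 2.11 ± 0.34 in roots (adjusted p = 5.12e-05), or by 1.46 with library size alone and by 2.90 with the authors' factors, and fell by 2.28 ± 0.34 in young pods (adjusted p = 4.86e-05). In flower buds the difference of 0.93 ± 0.26 had an adjusted p of 0.0117 but stayed under the required size of 1. It passed that size in 10 of 28 alternatives, among them the fits without flower buds 2, flower buds 3, roots 2, stem 2, mature leaves 1, flowers 1, flowers 2 or young pods 3.

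The order of miR4414 levels had 2 clear steps. Stem exceeded flowers by 2.28 ± 0.44 (adjusted p = 0.00245) and shoots exceeded roots by 2.40 ± 0.39 (adjusted p = 0.000142), comparisons in which 21.7% and 38.1% of all features passed. Flowers, flower buds and shoots did not differ beyond their spread from the next in order, and nor did roots, young pods and mature leaves. The step from stem to flowers did not pass with a single flower library left (adjusted p = 0.0937 without flowers 1 and 0.145 without flowers 2), where the lone library was assumed to vary like the other groups. Without roots 1, roots 2, roots 3, stem 2, flower buds 2, flower buds 3 or young pods 3, young pods exceeded mature leaves as well, by 1.07 to 1.41.

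miR319a had the same top and a narrower range. It was at 15368, 37802 and 27461 CPM in stem, at 12380, 23909 and 23789 CPM in flower buds and at 16245 and 16017 CPM in flowers. Shoots were at 10519, 8964 and 10509.9 CPM, roots at 5232, 4797 and 7925 CPM and young pods at 5357, 4599 and 7400.1 CPM. Mature leaves were lowest at 3805, 2687 and 2252 CPM and did not overlap any other tissue. The stem mean of 26877 ± 11229 CPM was 9.22 times that of mature leaves, at 2915 ± 801 CPM (SD, n = 3 each).

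Stem was higher for miR319a by 1.70 ± 0.25 (adjusted p = 2.88e-05, edgeR's quasi-likelihood F-test) and flower buds by 1.20 ± 0.26 (adjusted p = 0.00198). The flower bud call was lost when libraries were scaled by their size alone, at 0.88. In mature leaves miR319a fell by 2.04 ± 0.33 (adjusted p = 8.47e-05), by 2.71 without mature leaves 1 and by 2.65 without roots 2. In roots the difference was -0.83 ± 0.30 (adjusted p = 0.0266), in flowers 0.84 ± 0.31 (adjusted p = 0.0739) and in young pods -0.89 ± 0.30 (adjusted p = 0.0426), and none met both criteria. The flower difference met them, at 1.25 to 1.32, without roots 2, stem 2, mature leaves 1, flower buds 2, flower buds 3 or young pods 3. The root difference met them without flowers 1 (-1.05) and the young pod difference without young pods 3 (-1.09). None of its 6 steps between neighbouring tissues passed, although flowers exceeded shoots, by 1.17 to 1.19, without stem 2, mature leaves 1, flower buds 2, flower buds 3 or young pods 3. The nearest was young pods over mature leaves, at 0.99 ± 0.37 (adjusted p = 0.0540), which passed without any 1 library other than mature leaves 2, mature leaves 3 or young pods 1.

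**Figure D2:**
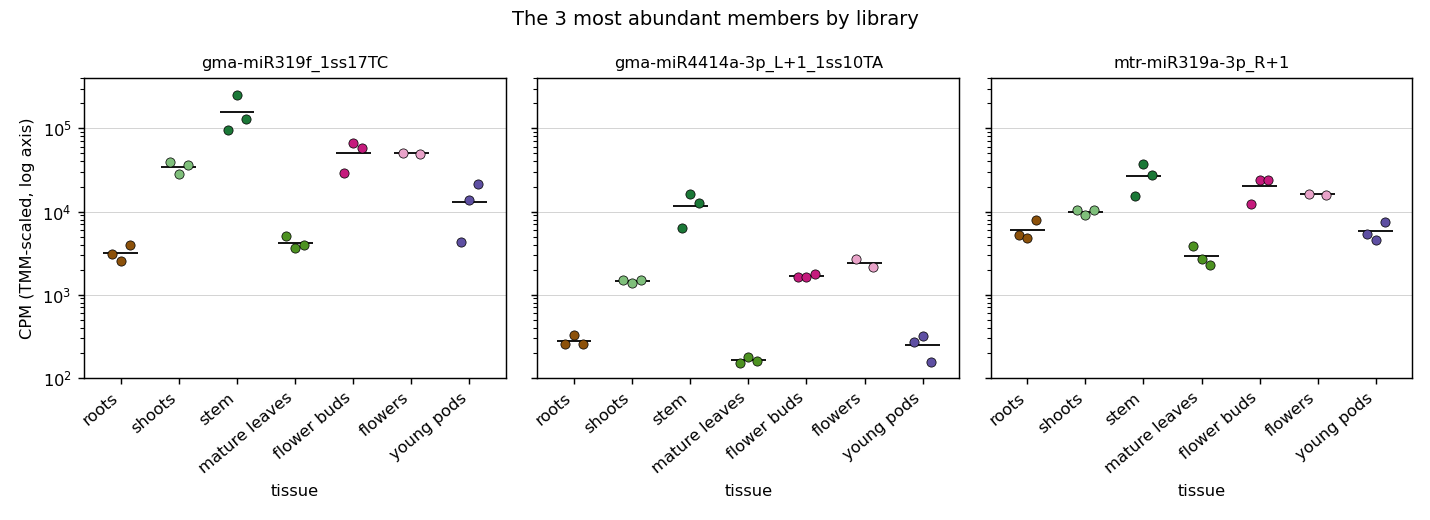
Each point is the CPM of 1 library on a log axis, with a black line at the tissue mean, for miR319f, miR4414 and miR319a in 7 tissues (n = 3, flowers n = 2). Stem was highest for each of them, and between stem and young pods miR4414 went from 11768 to 248 CPM and miR319a from 26877 to 5785 CPM.

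miR319d did not follow the same order. It was at 1418, 2986 and 1433 CPM in stem, at 1432, 1914 and 2028 CPM in shoots and at 752, 810.1 and 1247 CPM in roots. Flower buds were at 304, 515 and 529 CPM, flowers at 471 and 524 CPM and mature leaves at 553, 245 and 305 CPM. Young pods, at 176, 102 and 163.5 CPM, lay below all other libraries. Stem and shoots overlapped fully, and both lay above the flower buds, flowers and mature leaves. Against the other 6 tissues it was higher in stem by 1.89 ± 0.29 (adjusted p = 4.28e-05, edgeR's quasi-likelihood F-test) and in shoots by 1.76 ± 0.29 (adjusted p = 0.000215). It fell by 2.45 ± 0.41 in young pods (adjusted p = 0.000173). In mature leaves the difference of -0.89 ± 0.36 did not pass (adjusted p = 0.0706), although it passed in 20 of 28 alternatives, among them the loss of any 1 library other than shoots 3, stem 1, mature leaves 2, mature leaves 3 or young pods 1. Its listed precursor is a 32 nt piece, so no partner strand could be set beside it.

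miR319c, the member that starts 1 base earlier, was highest in young pods, flower buds and flowers. It was at 1769, 1565 and 2245 CPM in young pods, at 720.0, 1731 and 1649 CPM in flower buds and at 668 and 769 CPM in flowers. Shoots were at 79.6, 181 and 145 CPM and stem at 51.2, 107 and 70.7 CPM. It was listed at 0 in all 3 mature leaf libraries and in 2 of 3 root libraries, with 69.9 CPM in roots 3. Every library of young pods, flower buds and flowers lay above every other library. Of its values 60% were not whole numbers although it has 1 entry, so its levels and strand shares may also come from divided counts. The mean in young pods, 1859.7 ± 349 CPM (SD, n = 3), was at least 44.03-fold higher than the mean limit of 42.2 CPM that 5 reads per library set in mature leaves.

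A fitted size is not given for miR319c because a tissue was at 0 throughout. It was called higher in young pods (adjusted p = 2.94e-06), flower buds (adjusted p = 2.37e-05) and flowers (adjusted p = 0.00267) and lower in mature leaves (adjusted p = 8.01e-05) by edgeR's quasi-likelihood F-test. The call in mature leaves was lost without roots 3, which left roots at 0 as well. Its listed partner strand, mtr-miR319c-5p_L-1R+1, was at 71.3, 152 and 216 CPM in flower buds and at 81.4, 107 and 58.0 CPM in young pods. It was at 12.9 CPM in flowers 2 and listed at 0 in the other 13 libraries. The partner strand was called higher in flower buds (adjusted p = 0.000319) and in young pods (adjusted p = 0.000581).

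The less abundant members fell into variants of the mature strand and partner strands. ath-miR319a_1ss21TA, which differs from miR319a at its last base, was called in the same direction as miR319f in roots, stem, mature leaves, flower buds and flowers. It was at 494, 609 and 475 CPM in stem, at 367 and 372 CPM in flowers and at 19.2, 0 and 18.8 CPM in roots, and stem lay above all other tissues. It was higher in stem by 2.39 ± 0.39 (adjusted p = 7.61e-05, edgeR's quasi-likelihood F-test), in flower buds by 1.70 ± 0.40 (adjusted p = 0.00388) and in flowers by 1.80 ± 0.46 (adjusted p = 0.0125). It fell by 3.51 ± 0.65 in roots (adjusted p = 0.000185), or by 4.32 with the authors' factors. In mature leaves it fell by 1.55 ± 0.55 (adjusted p = 0.0370), a call lost without mature leaves 2 (adjusted p = 0.119), without mature leaves 3 (adjusted p = 0.124), with no filter (adjusted p = 0.140) and with the replicate number as a block (adjusted p = 0.111). The same difference was -2.23 without roots 2 or without mature leaves 1, -2.13 without stem 2 and -2.21 with counts ending in 0.5 rounded to even numbers. Its young pod mean of 91.6 ± 69.4 CPM was 51.6 CPM without young pods 3.

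rco-miR319a_R+1_1ss21TC, 1 base longer, was highest in stem. It was at 205, 177 and 197 CPM there, at 28.3 and 69.2 CPM in flowers and between 0 and 31.7 CPM in flower buds and young pods. It was listed at 0 in every library of roots, shoots and mature leaves, which made the stem mean at least 4.57-fold higher than the limit in mature leaves. It was called higher in stem (adjusted p = 0.000266), where it did not overlap any other tissue, and in flowers (adjusted p = 0.0320), a call lost without flowers 2 and with DESeq2. ath-miR319c_1ss21TA, at 69.2 ± 37.5 CPM in flower buds and 69.0 ± 25.3 CPM in young pods, did not pass over the tissues (adjusted p = 0.255). In the other 5 tissues it was above 0 in 1 of 3 libraries each of roots, shoots and mature leaves and in every library of stem and flowers, at 6.90 to 40.5 CPM where above 0.

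Among the partner strands of miR319a, mtr-miR319a-5p_L-1 was at 61.5, 502 and 352 CPM in stem, where it was called higher (adjusted p = 0.00447, edgeR's quasi-likelihood F-test). It was called lower in mature leaves, at 0 in all 3 libraries (adjusted p = 0.0158), and lost that call without roots 3, shoots 3 or mature leaves 1. Its young pod mean of 93.6 ± 71.6 CPM was 53.9 CPM without young pods 1. mtr-miR319b-5p_L+1R-1 was highest in flowers, at 88.6 and 90.2 CPM, and was called higher there (adjusted p = 0.0316) and in stem (adjusted p = 0.0248). The flower call was lost without flowers 2, the stem call without stem 2, stem 3 or flowers 1, and both with DESeq2.

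The 2 inner entries were rarer still, as was gma-MIR319o-p5_1ss18CT, whose listed precursor of 55 nt has no entry on the 3′ side. mtr-MIR319d-p5 was above 0 in 7 of 20 libraries, at most at 96.0 CPM in stem 2, and did not pass over the tissues (adjusted p = 0.128). mtr-MIR319b-p5_1ss13GA was above 0 in 6 libraries, at 70.9 and 70.04 CPM in flowers, between 27.2 and 93.4 CPM in flower buds and at 22.5 CPM in stem 2. It was called higher in flower buds (adjusted p = 0.00486) and flowers (adjusted p = 0.00900), calls that DESeq2 did not make. gma-MIR319o-p5_1ss18CT held 96 reads in all and was at 53.7, 0 and 37.6 CPM in roots and at 20.5, 47.0 and 15.5 CPM in stem. It was called higher in roots (adjusted p = 0.0208) and stem (adjusted p = 0.0371), and each call was kept in 11 of 28 alternatives only. The roots call was lost without roots 1, roots 3, shoots 3, stem 2, stem 3, mature leaves 1, flower buds 2, flower buds 3, flowers 1, flowers 2, young pods 1 or young pods 2. The stem call was lost without any 1 of these libraries and without stem 1, and both were lost with DESeq2. The stem call of mtr-MIR319d-p5 (adjusted p = 0.0412) was kept in 15 of 28 alternatives, and was lost without roots 2, stem 2, stem 3, mature leaves 1, mature leaves 2, flower buds 2, flower buds 3, flowers 1 or young pods 3.

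Of the 16 members 14 passed the filter on low counts. The 2 that did not were aly-miR319a-3p_L+1_1ss22TA, with 154.5 reads and at most 61.1 CPM, and gma-miR319c_L+1, with 20.5 reads and at most 19.2 CPM. Over the 7 tissues 12 of the 14 tested members differed, against 74.3% of all 323 features tested (240 features), so this share was near the background. In stem 10 of 14 members were called higher and 0 lower, where 22.6% of all features were called higher and 7.74% lower. In mature leaves 6 were called lower and 0 higher, against 9.91% and 21.1% of all features. In flower buds 6 were higher and 0 lower, against 17.6% and 6.19%. In flowers 7 were higher and 0 lower, against 13% and 2.17%.

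Roots, shoots and young pods gave fewer calls. In roots 1 member was higher and 3 were lower, against 32.2% and 19.8% of all features. In shoots 1 was higher and 0 lower, against 11.5% and 2.79%, and in young pods 2 were higher and 2 lower, against 16.1% and 4.64%. Of the 14 members 8 were at 0 throughout at least 1 tissue, and a higher call for these rests in part on the tissues at 0. mtr-miR319b-5p_L+1R-1 in flowers passed against no single tissue where it was above 0 (adjusted p of 0.312 or more, edgeR's quasi-likelihood F-test). The same held for gma-MIR319o-p5_1ss18CT in roots (0.261 or more). Among the stem calls it held for rco-miR319a_R+1_1ss21TC (0.0684 or more), mtr-miR319b-5p_L+1R-1 (0.269 or more), mtr-MIR319d-p5 (0.327 or more) and gma-MIR319o-p5_1ss18CT (0.365 or more). It also held for rco-miR319a_R+1_1ss21TC in flowers (0.416 or more) and mtr-MIR319b-p5_1ss13GA in flower buds and flowers (0.235 or more). For mtr-miR319c-5p_L-1R+1 it held in flower buds (0.144 or more) and young pods (0.195 or more). For the 6 members never at 0 throughout a tissue, the median log2 difference was 2.14 in stem and -1.79 in mature leaves. Over all features it was 0.06 and -0.41. The map of mean levels sets all 16 side by side.

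**Figure D3:**
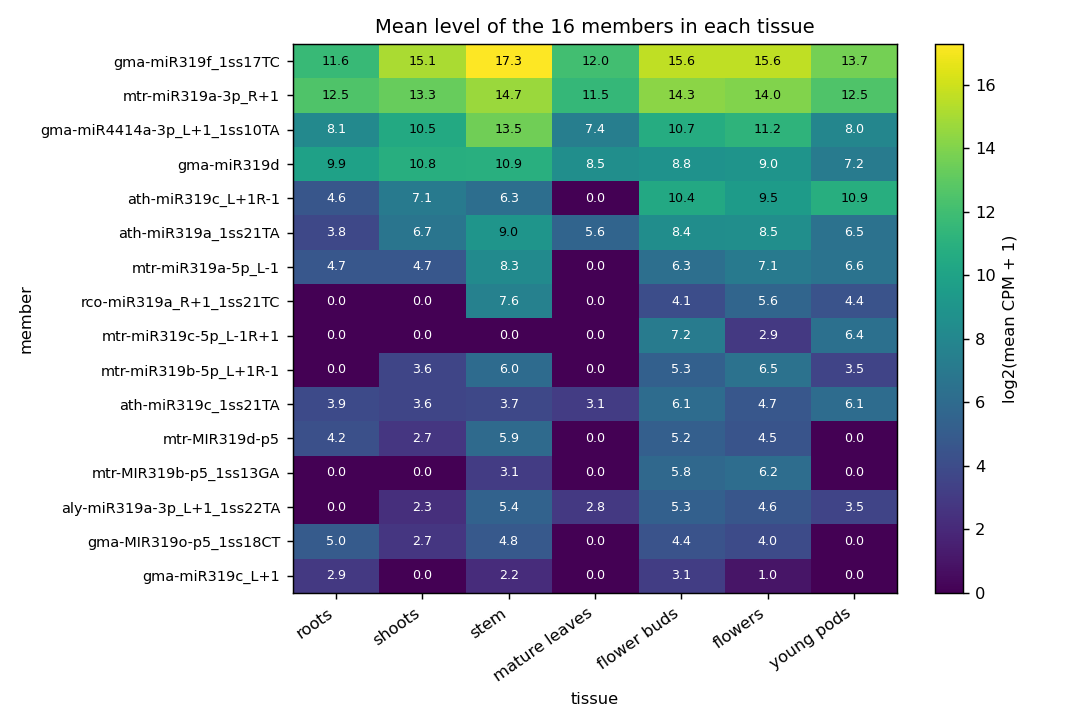
Each cell is log2(mean CPM + 1) of 1 of the 16 members (rows, from the most to the least abundant) in 1 of 7 tissues (columns), with the value printed in it. The stem column was highest for the top 4 members, while the row of ath-miR319c_L+1R-1 peaked in young pods and was at 0 in mature leaves.

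The make-up of the miR319 and miR4414 reads shifted with tissue. miR319f made up 78.7% ± 3.18 (SD, n = 3) of the members' reads in stem and 30.6% ± 2.12 in roots. miR319a went the other way, from 13.6% ± 2.003 in stem to 56.7% ± 1.36 in roots. When repeated entries were summed, miR319f still led in stem, at 61.9% against 31.9% for miR319a, and miR319a in roots, at 79.6% against 14.3%. In flower buds the lead changed with the counting, from 67.1% miR319f and 26.8% miR319a to 43.6% and 52.2% with entries summed. It changed likewise in mature leaves, from 54.9% and 37.5% to 31.4% and 64.0%. In young pods, which spread widely, the means went from 56.3% and 29.8% to 36.8% and 54.5%. All members together took 14.5% to 20.1% of the reads in the stem libraries and 0.490% to 0.746% in mature leaves. That count keeps 1 entry per sequence.

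Members were then compared within each library, so that the difference between them was tested directly. The difference in log2(CPM + 1) between miR319f and miR319a ran from -0.89 ± 0.13 in roots to 2.54 ± 0.26 in stem (SD, n = 3 each). It was 1.79 ± 0.12 in shoots, 1.64 ± 0.02 in flowers (n = 2), 1.33 ± 0.12 in flower buds and 0.55 ± 0.24 in mature leaves. Young pods, at 0.93 ± 1.10, spread widest, with young pods 1 below 0. These differences keep 1 entry per sequence. With entries summed, miR319a had the larger mean share of reads in flower buds, mature leaves and young pods too. The tissues differed by a two-sided permutation test with 100000 resamples (p = 8e-05, adjusted p = 0.00037 over 97 tests). Every root library was lower than every stem library by this measure, although in no tissue was 1 of them called higher and the other lower.

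A pair was said to move apart where its difference passed this test and, in some tissue, 1 member was called higher and the other lower. Of 91 pairs 56 had an adjusted p under 0.05, and 6 moved apart. Pairs of other features were not counted in this way, and 74.3% of all features tested differed over the tissues. In young pods, miR4414 and miR319d were lower while miR319c and its partner strand were higher, which made 4 pairs. The permutation test gave adjusted p = 0.000182 for miR4414 with miR319c, 0.000176 for miR319d with miR319c, and 0.000108 for each of them with miR319c-5p. Before adjustment the last was p = 1e-05, the smallest value this permutation test can give. These 4 pairs moved apart in 28 of 28 alternatives. Pairs with miR319c and with its partner strand are not independent of one another. In young pods miR319c-5p passed against neither flower buds nor flowers (adjusted p of 0.195 or more, edgeR's quasi-likelihood F-test). No other tissue had it above 0, so its young pod call rests on the tissues at 0.

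The contrast between miR319c and miR319d shows the size of this. Their log2 difference was 3.67 ± 0.31 in young pods and 1.54 ± 0.27 in flower buds. It was 0.53 ± 0.04 in flowers (n = 2), -3.78 ± 0.38 in shoots and -4.62 ± 0.26 in stem (SD, n = 3). In mature leaves, with miR319c at 0, it was -8.44 ± 0.60, and in roots it was -7.79 ± 3.16, values that depend on the 1 CPM added before the logarithm. Reproductive tissues lay above 0 in every library and vegetative tissues below 0 in every library.

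The other 2 pairs set gma-MIR319o-p5_1ss18CT, higher in roots, against miR319f (adjusted p = 0.0307 by permutation test) and ath-miR319a_1ss21TA (adjusted p = 0.00353), both lower there. They were kept in 10 and 12 of 28 alternatives and rest on the root call of a member with 96 reads. They were lost without the same 12 libraries as that call, and the pair with miR319f also without young pods 3. All 6 pairs include a member that was at 0 throughout at least 1 tissue. Among the 6 members that never were, 0 pairs moved apart by this rule.

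**Figure D4:**
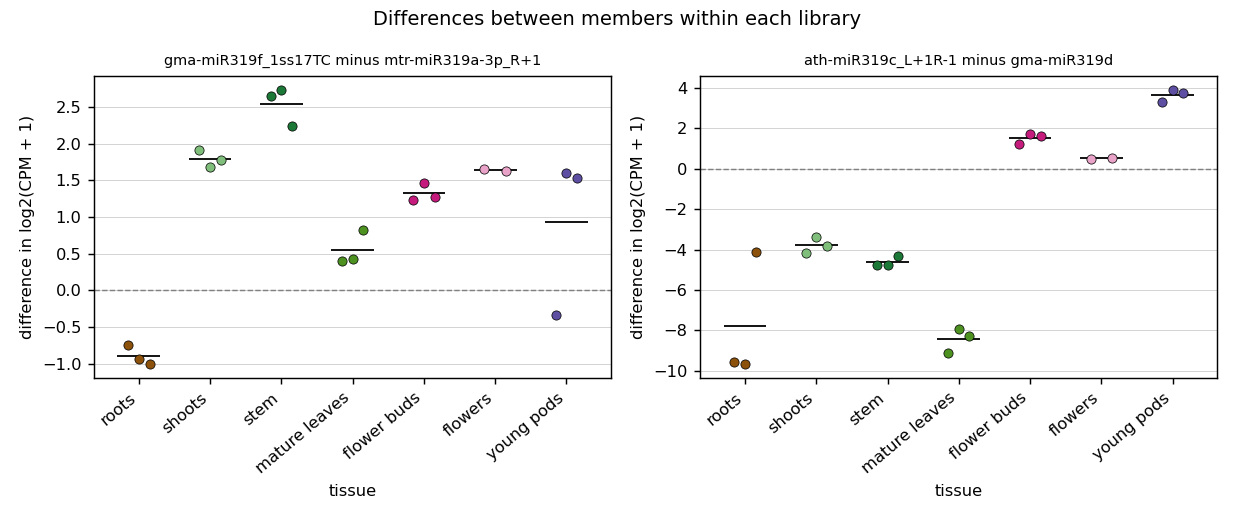
Each point is the difference in log2(CPM + 1) between a pair of members in 1 library, with a black line at the tissue mean and a dashed line at 0. On the left miR319f minus miR319a, with 1 entry per sequence, ran from -0.89 in roots to 2.54 in stem. On the right miR319c minus miR319d lay above 0 in flower buds, flowers and young pods and below 0 in the other 4 tissues.

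The ratio of the sequences on 1 precursor needs no scaling between libraries, since both are counted in the same library. miR319f had more reads than miR4414 in every library. The ratio of miR319f to miR4414 reads was 12.3, 7.78 and 15.7 in roots and 15.2, 15.6 and 10.2 in stem. It was 26.2, 21.0 and 23.7 in shoots, 33.2, 20.2 and 25.2 in mature leaves and 19.1 and 23.0 in flowers. Flower buds, at 17.7, 40.8 and 32.3, and young pods, at 15.7, 43.3 and 139, spread more widely. Roots and stem overlapped one another and lay below shoots and mature leaves.

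On the log2 scale the mean ratio was 3.48 ± 0.51 in roots, 3.74 ± 0.35 in stem, 4.39 ± 0.19 in flowers (n = 2) and 4.55 ± 0.16 in shoots. It was 4.61 ± 0.38 in mature leaves, 4.83 ± 0.62 in flower buds and 5.49 ± 1.56 in young pods (SD, n = 3). The difference between tissues did not pass the permutation test (p = 0.0554, adjusted p = 0.0811). That result rests on young pods 1, without which the adjusted p was 0.00157 and the range of means 2.76 in place of 2.002. Without young pods 3, the library with the ratio of 139, the adjusted p was 0.0731. In young pods 3 the ratio came from 29 reads of miR4414 against 4037 of miR319f, a miR4414 share of 0.713% (95% Wilson interval 0.497% to 1.02%). In stem 3, from 7411 against 75266 reads, the share was 8.96% (8.77% to 9.16%). Intervals cover counting error only.

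miR319c was compared with its partner strand in the same way. The 5′ strand made up 9.04%, 8.07% and 11.6% of both in flower buds, 4.40%, 6.41% and 2.52% in young pods and 1.65% in flowers 2. It was listed at 0 in flowers 1, that is at fewer than about 5 reads, beside 188.5 reads of the 3′ strand. Flower buds lay above young pods and flowers with no overlap. In shoots, stem and roots 3 the 5′ strand was at 0 beside 9 to 52.5 reads of the 3′ strand. A share like that of flower buds would have been below or near the limit of 5 reads in each. These libraries therefore cannot show whether the share was lower there. The difference over 6 tissues had p = 0.037 and an adjusted p of 0.0588 by permutation test and did not pass. It passed in 6 of 25 alternatives, among them the fits without roots 3, shoots 1 or stem 1, the use of 0.5 or 5 reads as the added count, and the restriction to libraries with both strands at 5 reads or more (adjusted p = 0.0297).

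**Figure D5:**
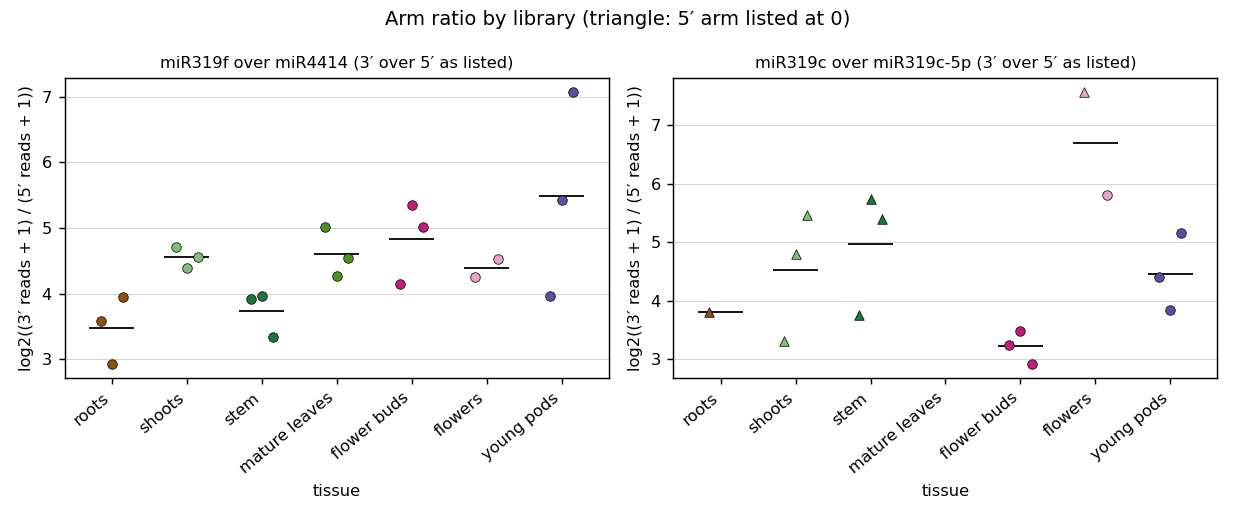
Each point is log2 of the ratio of reads of the sequences listed as 3′ and 5′ on 1 precursor in 1 library, with 1 read added to each, a black line at the tissue mean, and triangles where the 5′ sequence was listed at 0. The ratio of miR319f to miR4414 was lowest in roots (mean 3.48) and spread most in young pods, and the ratio of miR319c to its partner was lowest in flower buds (mean 3.22).

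The only ratio that passed was that of ath-miR319a_1ss21TA to mtr-MIR319b-p5_1ss13GA (p = 0.0126, adjusted p = 0.0267 by permutation test). ath-miR319a_1ss21TA has 1 mismatch to this precursor and is also listed on another, so its reads cannot be assigned to either. The mean log2 ratio was 2.35 ± 0.06 in flowers (n = 2) and 2.72 ± 1.01 in flower buds, against 6.56 ± 1.76 in stem (SD, n = 3). In stem the inner entry was at 0 in 2 of 3 libraries, so the ratio there depends on the table's limit of 5 reads. The call was lost without stem 1, stem 3, flower buds 1, flower buds 3, flowers 1, flowers 2 or young pods 3, with adjusted p of 0.0539 to 0.0780. Among libraries with both sequences at 5 reads or more the adjusted p was 0.220. The ratios of miR319a to the entries listed as 5′ on its 3 precursors did not pass, with adjusted p of 0.129, 0.302 and 0.534. The last was the ratio to the inner entry mtr-MIR319d-p5, which had 0 pairs with miR319a and so is not its partner strand. Without shoots 3 the ratio of miR319a to mtr-miR319a-5p_L-1 passed (adjusted p = 0.0318), and with 5 reads added that to mtr-MIR319d-p5 did (adjusted p = 0.00696), and the shared miR319a reads cannot be divided among the precursors.

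Features outside the families were ranked by how closely their levels followed miR319f and miR4414 over the 20 libraries, as a description with no p, since all features share the same libraries. For miR319f the nearest by Pearson r of log2(CPM + 1) were csi-miR156j-5p (r = 0.879), ath-miR394a (0.811), ath-miR164a_R+1 (0.721), mtr-MIR171f-p5 (0.682) and ath-miR394a_L+1 (0.673). Among members, miR4414 (0.911) and miR319a (0.903) followed it more closely than any of these, and miR319d (0.432) less closely. For miR4414 the nearest were csi-miR156j-5p (0.883), mtr-miR156i-3p_L-1 (0.645), ath-miR394a (0.604), ath-miR172c_1ss7TC (0.592) and lus-miR396b_R+1_1ss21TA (0.590). csi-miR156j-5p was at 1156 CPM in stem and 2.88 CPM in mature leaves on average.

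The families tied to organ growth beside miR319 in Arabidopsis were miR159, miR164, which targets NAC factors, and miR396, which targets GRF growth factors. In stem 5 of 10 tested miR159 features, 4 of 9 miR164 features and 5 of 7 miR396 features were called higher, and 1 miR396 feature was lower, where 22.6% of all features were higher and 7.74% lower. The most abundant miR159 feature, mtr-miR159a, was higher in stem by 1.59 ± 0.25 (adjusted p = 6.09e-05, edgeR's quasi-likelihood F-test), and fell by 1.32 ± 0.31 in flower buds (adjusted p = 0.00388), where miR319a and miR319f were higher. In mature leaves it was at 172978 ± 122308 CPM. There 2 of 10 miR159 features were higher and 0 lower, near the 21.1% and 9.91% of all features. Of the miR396 features 3 of 7 were higher there and 0 lower, and of the miR164 features 0 of 9 were higher and 4 lower. In roots 1 miR164 feature was higher and 4 were lower, against 32.2% and 19.8% of all features. ath-miR164a was called higher in stem (1.54 ± 0.20) and lower in mature leaves (-1.46 ± 0.25) and roots (-1.57 ± 0.25). These were the directions of miR319f. In young pods 6 of 9 miR164 features were higher and 0 were lower, against 16.1% and 4.64% of all features, and ath-miR164a was higher by 1.90 ± 0.20 (adjusted p = 9.71e-07). Its level there, 132185 ± 38043 CPM, compares with 25808 ± 1597.5 CPM in flower buds. The most abundant miR396 feature, mtr-miR396a-3p, fell by 1.42 ± 0.33 in stem (adjusted p = 0.00309) and fell by 1.997 ± 0.35 in roots (adjusted p = 0.000111).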

How the data were processed

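Small RNA was measured in 20 libraries of 7 lentil tissues. Per the labels' protocols, total RNA from pooled samples was isolated with TRI Reagent and a Spectrum Plant kit, and libraries were made with the TruSeq Small RNA kit. The aligner, caller and build were not given in the sources used here. As deposited, values are estimated counts that need not be whole and, per the file headers, a normalized signal that the authors made with 1 factor per library, used only to recover those factors. Not reported are 7 lines. Members, gene lists and tests were chosen with earlier results of these data known.

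Counts of 1464 distinct sequences (the entry with the highest total per sequence) were rounded, 0.5 upwards, filtered by tissue (323 kept) and scaled by TMM. edgeR 4.0.16 (limma 3.58.1, R 4.3.3) fitted tissue by quasi-likelihood over all 20 libraries, with Benjamini-Hochberg adjustment over all features. Calls of a tissue against the mean of the other 6 needed an adjusted p under 0.05 and a log2 difference of at least 1. The share of each arm of a precursor and the difference between members were tested by two-sided permutation of tissue labels (100000 resamples, scipy 1.17.1 and numpy 2.4.6), adjusted over 97 tests; libraries with both arms under 5 reads were left out. Precursors were folded with ViennaRNA 2.7.2. The code was tested on simulated data. Every member was named, with the 5 features nearest in pattern to the leading miR319 and miR4414 sequences and the most abundant feature of each other family.

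Alternatives were other scalings, no filter, summed entries, DESeq2 1.42.0, other added counts, each library left out and a replicate block. Libraries held 72853 to 997119 reads, and within each tissue they differed beyond sampling noise (chi-square per degree of freedom of 7.88 or more in 19 pairs).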

Additional observations from a re-analysis of the deposited data

How the results depend on the processing

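The number of members that differed over the tissues was 12, and 10 to 13 over the alternatives. Calls of a tissue against the other 6 numbered 38, and 33 with DESeq2 to 46 without young pods 3. Pairs of members that moved apart numbered 6, and 4 to 9. Steps between neighbouring tissues that passed for the 3 leading members numbered 5, but 8 with library size alone and 8 with the authors' factors, and 3 (without flowers 1) to 8 (without flower buds 2) with 1 library left out. Precursors whose ratio of sequences differed over the tissues numbered 1, but 2 with 0.5 reads added and 3 with 5 reads added. With 1 library left out they numbered 0 (without stem 3, flower buds 1, flower buds 3, flowers 1, flowers 2 or young pods 3) to 2 (without roots 3, shoots 1, shoots 3 or young pods 1). The cause was not tested. No call of a tissue against the other 6 reversed its direction under these alternatives. The order of miR319f and miR319a did change with entries summed. miR319a then had the larger mean share of reads in flower buds, mature leaves and young pods as well as roots. All calls of miR319f, miR4414 and miR319d against the other 6 tissues were kept in 28 of 28 alternatives.

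The replicate numbers showed no clear pairing of the libraries. Over 57 pairs with the same number, deviations from the tissue means had r of -0.244 to 0.285, with 17 pairs over 0.1. Whether libraries with the same number share a batch was not tested. With the number as a block the counts were 11 members, 36 tissue calls, 5 steps, 1 precursor and 4 pairs. Scaling shifted the median difference over all features, in roots by 0.59 with library size alone and by -0.76 with the authors' factors, and in mature leaves by -0.56 with counts ending in 0.5 rounded to even numbers, an alternative chosen after seeing the data. In mature leaves 3, where 5 reads stood for 61.0 CPM, members listed once with whole counts were hardly detectable under that level. A sequence with repeated entries could be listed lower, as ath-miR319a_1ss21TA was there at 36.6 CPM.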
